A study of Mus musculus with 2 samples.

Results

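SNARE proteins are the coiled-coil membrane proteins that pull a transport vesicle and its target membrane together and drive their fusion. A genes-by-name rule took every gene with a single-gene probe set whose symbol begins with Stx, Vamp or Snap followed by a digit, or with Stxbp, Vti1, Bet1, Gosr, Sec22 or Ykt6. It found 42 of the 18194 genes on the array, measured by 105 probe sets, and the brightest probe set by mean over both arrays stood for each gene. The rule uses symbols and brightness, not the difference between the arrays, but it was drawn up with earlier results of these data known. Of the 42 genes, 33 encode SNAREs, 6 encode syntaxin-binding proteins, Sec22a and Sec22c encode Sec22 relatives without a SNARE motif, and Snap91 encodes the clathrin adaptor AP180, which shares only its name with the SNAP family.

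The arrays hold total RNA of conventional dendritic cells (DCs), the cells that take up antigen and present it to T cells, from the spleens of C57BL/6 mice. All mice carried B16 melanoma cells secreting Flt3L, a cytokine that expands DCs, for 10 to 12 days, so both groups come from tumour-bearing mice with an enlarged DC pool. Magnetically enriched spleen cells were sorted as CD3-B220-CD8a+CD11c+ (the CD8+ DC group) or CD3-B220-CD8a-CD11c+ (the CD8- DC group), and both were left unstimulated. Each group is 1 array, the labels do not say how many mice it represents, and no age is given. A difference between the arrays therefore has no replicate error, no test was possible, and it cannot be told apart from variation between mice, sorts or hybridisations.

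In a fusion reaction, a bundle forms from SNARE motifs of the Qa, Qb, Qc and R classes. Syntaxins give the Qa motif, VAMPs, Sec22b and Ykt6 the R motif, and members of the SNAP-25 family carry the Qb and Qc motifs in a single protein. Sec1/Munc18 proteins such as Stxbp2 and Stxbp3 clasp syntaxins and guide the assembly, and NSF with its SNAP adaptors takes used bundles apart. In DCs these proteins serve cytokine secretion, the recycling of surface receptors, phagosome maturation and the delivery of class I and class II molecules. Sec22b in particular has been studied for its part in bringing endoplasmic reticulum proteins to phagosomes during cross-presentation, the loading of engulfed antigen on class I molecules for which CD8+ DCs are known.

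The sort marker separated the arrays, and other subset markers did so in part. The 5 pan-DC markers were above the floor on both, where the floor is the middle value of the whole table (3.85 on the log2 scale). Cd8a was at 11.29 in CD8+ and 5.15 in CD8- DCs, and Sirpa at 4.49 and 8.69. Markers of plasma cells, NK cells, neutrophils and mast cells or basophils were all below the floor, and of the T cell, B cell, platelet and melanoma lists 1 gene each was above it on both arrays. All 5 CD8+ DC markers on the array were above the floor on both arrays, with Xcr1 at 10.88 in CD8+ and 8.45 in CD8- DCs, Cadm1 at 10.35 and 7.22, Irf8 at 11.91 and 10.23, and Batf3 at 9.56 and 8.90. Of the 4 CD8- DC markers on the array, 2 were above the floor in CD8+ and 4 in CD8- DCs, and of the erythroid markers 2 and 1 were. Of 4 red pulp macrophage markers, 2 were above the floor in CD8+ and 3 in CD8- DCs, with a summed level of 6.47 and 8.56 on the log2 scale. Adgre1 (4.63 and 8.22) and C1qa (2.84 and 5.30) were higher in CD8- DCs, whereas Vcam1 (5.52 and 4.66) was higher in CD8+ DCs. Spic (3.40 and 3.74) reached the floor in neither group. Of 3 plasmacytoid DC markers, 2 and 3 were above it, with a summed level of 8.31 and 8.05. They differed in direction, with Ccr9 at 8.03 and 5.94, Tcf4 at 5.47 and 7.55, and the defining marker Siglech near the floor (3.71 and 4.04). The part of such cells in the differences below was not tested. In sorted pools, fewer cells with a transcript and less of it per cell cannot be told apart.

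Most SNARE genes were present in both DC subsets at similar levels. Of the 42 genes, 39 were above the floor (92.9%, against 62.7% of all genes on the array), and 35 of these 39 differed by less than 2-fold. The 4 past 2-fold compare with 9.52% of all genes in either direction, and the 6 past 1.5-fold with 20.0%. Higher in CD8+ DCs by at least 2-fold were Stx3, Stxbp5 and Snap47, 3 genes or 7.69% of those above the floor, against 3.55% of all genes. Higher in CD8- DCs by that much as measured was Stxbp6, 1 gene or 2.56%, against 5.97% of all genes. At 1.5-fold, Vamp3 and Stx17 joined the CD8+ side, giving 5 genes (12.8%, against 8.49% of all genes), while the CD8- side held 1 gene (2.56%, against 11.5%). The split at 1.5-fold depended on the probe sets. Averaging over each gene's probe sets, an alternative chosen after seeing the data, left 35 members above the floor. Of these, 4 were past 1.5-fold towards CD8+ DCs, against 7.53% of all genes in that setting. Towards CD8- DCs there were 2, Vamp4 (-0.88) and Stx11 (-0.67), against 10.6% of all genes. Counting only the 33 genes of the SNARE classes, 31 were above the floor, and Stx3 and Snap47 were the 2 past 2-fold. With so few genes past either threshold, these shares describe the 39 genes and set them apart from no other group.

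**Figure D1:**
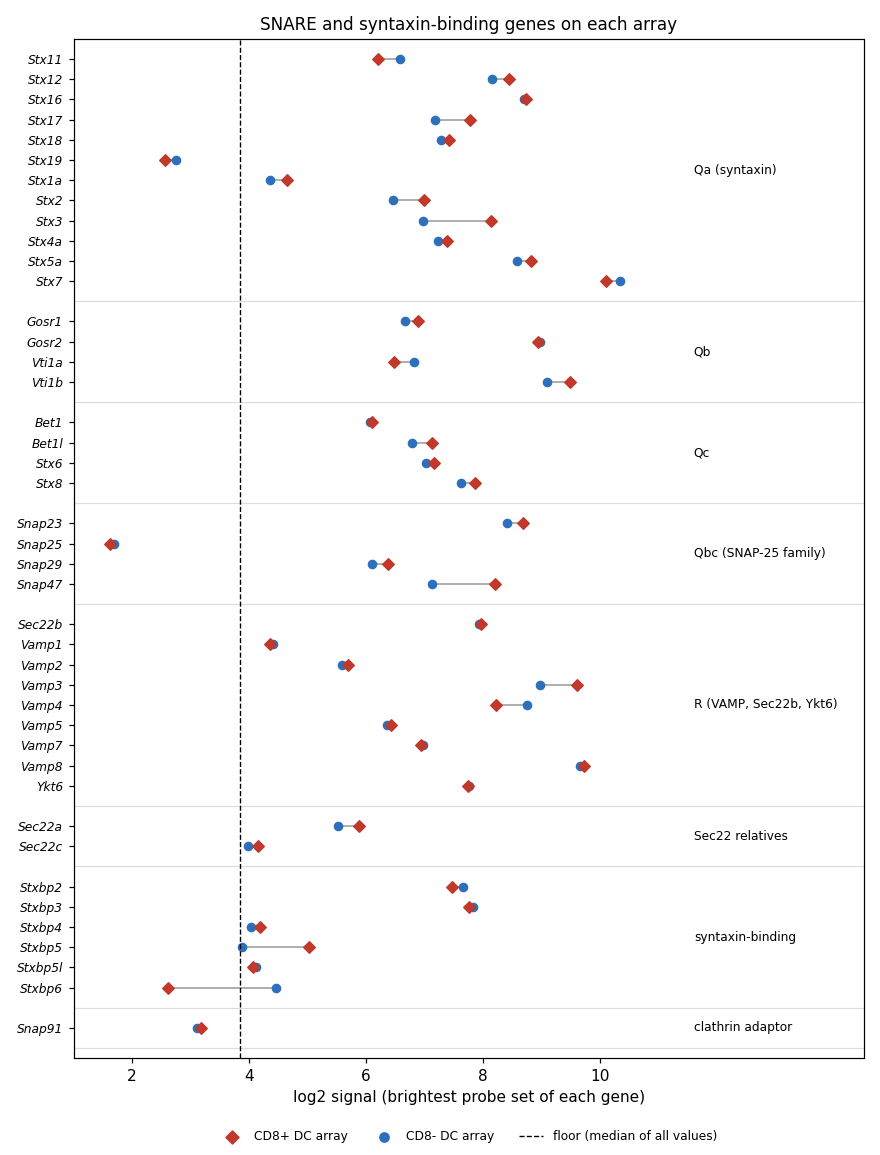
Log2 signal (x axis) of the brightest probe set of each of the 42 genes, grouped by SNARE class, on the CD8+ DC array (red diamonds) and the CD8- DC array (blue circles), 1 array each; the dashed line is the floor of 3.85. The symbols nearly coincide for most genes, stand clearly apart for Stx3, Snap47, Stxbp5 and Stxbp6, and lie wholly below the floor for Snap25, Stx19 and Snap91.

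The small differences leaned to the CD8+ side. The 39 genes had a median log2 difference (CD8+ minus CD8-) of 0.14 with quartiles of -0.03 and 0.29, beside a median of 0.03 over all 11404 genes above the floor. Of the 39, 27 were higher in CD8+ DCs by any amount (69.2%, against 52.6% of all genes) and 12 were higher in CD8- DCs (30.8%, against 44.8%). After centring each array on its median the counts were 26 and 13, with 66.7% of members and 49.8% of all genes higher in CD8+ DCs. After subtracting the trend of the difference on signal they were 27 and 12, with 69.2% of members and 50.1% of all genes. As a guide to spread between probe sets, those of the same gene differed with a pooled SD of 0.30 over all genes and 0.20 over the SNARE genes. Of the 39 differences, 26 were smaller than the former (66.7%, against 57.4% of all genes). That spread does not include variation between mice, sorts or hybridisations, because all probe sets of a gene were read on the same 2 arrays.

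**Figure D2:**
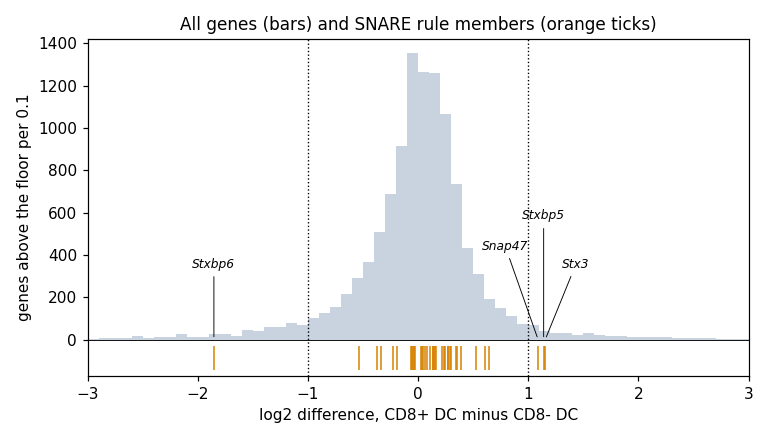
Number of genes above the floor per 0.1 of log2 difference, CD8+ minus CD8- (bars, 11404 genes, of which 130 lie beyond 3 in either direction and are not drawn), with the 39 SNARE and syntaxin-binding genes above the floor as orange ticks; dotted lines mark 2-fold. Most ticks lie near 0, with Snap47, Stxbp5 and Stx3 past 2-fold on the right and Stxbp6 on the left.

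The promoters of Stx3, Snap47, Stxbp5 and Stxbp6 are shown because these genes were past 2-fold as measured, although Stxbp6 had a value below the floor and Stxbp5 depended on the probe set. Each sequence is the 250 bases before the RefSeq gene start (GRCm38.p6), 5′ to 3′ in the direction of transcription, and capitals mark GC boxes, the letters GGGCGG on either strand.
Stx3 (chr19:11819404-11819653, - strand): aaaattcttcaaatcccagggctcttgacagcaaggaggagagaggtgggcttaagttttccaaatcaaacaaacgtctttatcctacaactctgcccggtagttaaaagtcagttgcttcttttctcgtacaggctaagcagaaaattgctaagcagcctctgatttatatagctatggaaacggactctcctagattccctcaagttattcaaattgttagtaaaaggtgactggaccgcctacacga
Snap47 (chr11:59450035-59450284, - strand): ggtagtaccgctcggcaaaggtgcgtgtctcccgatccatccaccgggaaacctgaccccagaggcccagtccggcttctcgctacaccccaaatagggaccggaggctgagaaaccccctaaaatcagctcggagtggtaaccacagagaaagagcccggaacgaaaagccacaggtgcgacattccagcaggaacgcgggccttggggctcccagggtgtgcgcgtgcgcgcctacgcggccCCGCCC
Stxbp5 (chr10:9901041-9901290, - strand): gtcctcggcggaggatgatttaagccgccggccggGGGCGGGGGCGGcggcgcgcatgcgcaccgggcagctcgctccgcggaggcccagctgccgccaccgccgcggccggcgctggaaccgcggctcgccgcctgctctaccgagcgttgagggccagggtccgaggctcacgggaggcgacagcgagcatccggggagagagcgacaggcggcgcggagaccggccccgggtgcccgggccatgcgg
Stxbp6 (chr12:45074484-45074733, - strand): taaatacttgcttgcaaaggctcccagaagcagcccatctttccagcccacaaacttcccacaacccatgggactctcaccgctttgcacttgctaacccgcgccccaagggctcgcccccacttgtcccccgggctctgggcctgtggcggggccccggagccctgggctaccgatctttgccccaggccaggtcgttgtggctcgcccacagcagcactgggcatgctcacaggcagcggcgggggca
The Stx3 window has 42.0% G and C and no GC box, whereas the Stxbp5 window has 78.4% and 2 adjoining GC boxes. Snap47 has 64.0% and 1 GC box at its end nearest the start, and Stxbp6 has 65.2% and none by these letters. The Stx3 window is also the only 1 of the 4 with a TATAAA on either strand. It lies on the opposite strand, and reads tttata in the direction of transcription. None of the 4 holds a CCAAT or a GAGGAA, a longer form of the ETS core GGAA. That says only that these letters are not in these windows. The shorter GGAA was not counted.

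Among all member genes, 38 of 42 matched the promoter table, with 44 windows, some of which overlap because a gene has several starts. GC boxes were in 26 of the 44 windows (59.1%), against 32.7% of all 32851 windows and 42.6% of the windows of protein-coding genes. TATAAA was in 2 windows (4.55%, against 12.4% of all), at Stx3 and at 1 of the Stx2 starts. CCAAT was in 18 (40.9%, against 33.8%) and GAGGAA in 6 (13.6%, against 23.3%). The median G and C content was 60.6%, against 52.4% in all windows and 55.6% in those of protein-coding genes. These are descriptions of letters, not of factor binding, and motifs were counted on both strands whether or not they overlapped.

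Among the syntaxins, which form the Qa position, Stx3 differed most. Stx3, a plasma membrane syntaxin of polarised and secretory cells, read 8.13 on the CD8+ DC array and 6.97 on the CD8- DC array, or 2.22-fold apart. Its other probe sets above the floor read 6.43 against 5.08 and 5.44 against 4.67, so that all 3 were higher in CD8+ DCs, by 0.77 to 1.35 on the log2 scale. A probe set below the floor also differed by 0.77. The promoter of this gene is the AT-rich sequence printed above.

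Stx17, the syntaxin that autophagosomes acquire before they fuse with lysosomes, was at 7.78 and 7.18 in CD8+ and CD8- DCs, or 1.52-fold higher in CD8+ DCs. All 4 of its probe sets were above the floor and higher in CD8+ DCs. The brightest pair differed by 0.60 and 0.55, and the dimmer pair by 1.06 and 1.17. The 1.52-fold of the brightest probe set is thus near the low end of what the gene's probe sets gave. Stx2, another plasma membrane syntaxin, was at 6.99 and 6.46 by its only probe set.

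Stx11 was the syntaxin with the largest difference towards CD8- DCs. It lacks a transmembrane segment and is needed for granule release by cytotoxic lymphocytes. It was at 6.20 in CD8+ against 6.58 in CD8- DCs, and its dimmer probe set read 4.77 and 5.74, a larger difference of -0.96 in the same direction. Stx7, the late endosomal syntaxin, was at 10.10 and 10.34 by 1 probe set. Of the 11 syntaxin genes of the Qa class above the floor, these were the 2 that were lower in CD8+ DCs.

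The remaining Qa genes differed by 0.30 or less. Stx12, which encodes the recycling endosome syntaxin also called syntaxin 13, was at 8.44 and 8.15. Stx5a, the syntaxin of the early secretory pathway, was at 8.82 and 8.58, and Stx4a, a plasma membrane syntaxin found in most cells, at 7.38 and 7.23. The trans-Golgi syntaxin gene Stx16 was at 8.74 and 8.70, and the endoplasmic reticulum syntaxin gene Stx18 at 7.41 and 7.28, with 5 probe sets between 0.07 and 0.19. The differences of Stx12 (0.29) and Stx5a (0.24) were larger than the SNARE genes' own probe set SD of 0.20 and smaller than the 0.30 of all genes.

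Some genes of the name rule were dim or below the floor. The neuronal syntaxin gene Stx1a was at 4.65 and 4.35 by a probe set prone to cross-hybridisation, and its other probe set was below the floor and pointed the other way (2.85 and 3.15). Neither array showed Stx19 above the floor (2.56 and 2.75), nor Snap25, the SNAP of nerve terminals (1.63 and 1.69). The adaptor gene Snap91, at 3.18 and 3.11, was also below it. Genes below the floor on both arrays were not ordered by their difference. A direction given for a single probe set below the floor rests on near-background values.

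In the SNAP-25 family, the difference lay in Snap47. Snap47 encodes SNAP-47, a widely expressed relative found on internal membranes. Its brightest probe set read 8.21 in CD8+ against 7.12 in CD8- DCs, or 2.13-fold apart. That probe set belongs to a type prone to cross-hybridisation, but the other, a standard 1, read 6.35 and 5.07, a difference of 1.27. Both probe sets therefore placed the gene past 2-fold.

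Its relatives differed less. Snap23, the SNAP used for secretion and phagosome fusion outside the nervous system, was at 8.67 and 8.40, with its 3 probe sets between -0.02 and 0.33. Snap29, which pairs with syntaxin 17 on autophagosomes, was at 6.36 and 6.09, and its 3 probe sets gave 0.13 to 0.27. By the brightest probe set both differed by 0.27 towards CD8+ DCs, above the SNARE genes' probe set SD of 0.20 and below the 0.30 of all genes.

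**Figure D3:**
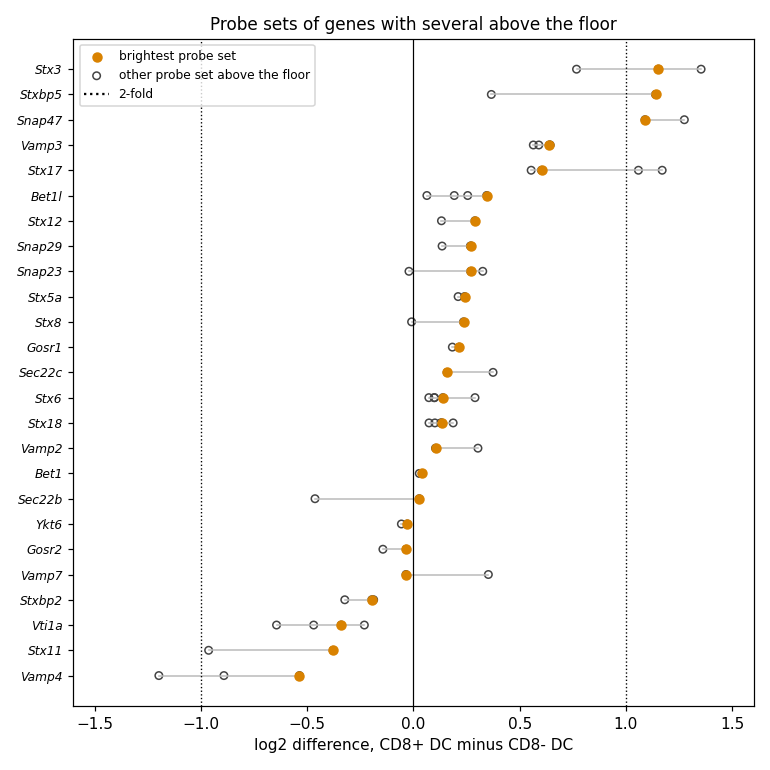
Log2 difference (x axis, CD8+ minus CD8-) of every probe set above the floor for the 25 genes with more than 1 such probe set; filled points are the brightest probe set, open points the others, and dotted lines mark 2-fold. All probe sets of Stx3, Stx17, Vamp3 and Snap47 lie to the right of 0 and all of Vamp4, Vti1a, Stx11 and Stxbp2 to the left, while those of Stxbp5, though on 1 side, are far apart.

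Probe sets of the same SNARE gene mostly pointed the same way. Of the 25 genes with several probe sets above the floor, 21 (84.0%) had all of them on 1 side of 0, against 67.1% of the 5183 such genes on the array. The exceptions were Snap23, Stx8, Vamp7 and Sec22b. A further 14 genes rested on a single probe set above the floor, among them Stx2, Stx7, Vti1b and Vamp8.

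Among the R-SNAREs, Vamp3 was higher in CD8+ DCs and Vamp4 lower. Vamp3 encodes cellubrevin, the R-SNARE of recycling endosomes. It read 9.60 in CD8+ against 8.96 in CD8- DCs, or 1.56-fold higher. The 4 probe sets above the floor lay close together, between 0.56 and 0.64, and the probe set below it gave 0.52. Vamp4, an R-SNARE of the trans-Golgi network and endosomes, read 8.21 and 8.75, a 1.45-fold difference towards CD8- DCs. Its dimmer probe sets read 5.43 against 6.33 and 4.60 against 5.79, differences of -0.89 and -1.20. The Vamp4 probe sets thus shared a direction but not a size.

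By their brightest probe sets, the R-SNAREs of lysosomal fusion and secretion were nearly level. Vamp8, also called endobrevin, which acts in late endosome fusion and regulated secretion, was at 9.73 and 9.65. Vamp7, an R-SNARE of lysosomes and late endosomes, was at 6.93 and 6.97, and its other probe set was 0.35 higher in CD8+ DCs. Vamp2, best known from synaptic vesicles, was at 5.69 and 5.58, and its dimmer probe set was 0.30 higher in CD8+ DCs. Its paralogue Vamp1 was at 4.36 and 4.41, and Vamp5, described from muscle, at 6.42 and 6.36.

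Sec22b, the R-SNARE between endoplasmic reticulum and Golgi studied in cross-presentation, showed no clear difference. It was at 7.96 in CD8+ and 7.93 in CD8- DCs by its brightest probe set. The dimmer probe set read 5.83 and 6.29, a difference of -0.46, so that the probe sets gave no common direction. Ykt6, a lipid-anchored R-SNARE, was at 7.73 and 7.76. By their brightest probe sets, the Sec22 relatives Sec22a (5.87 and 5.52) and Sec22c (4.15 and 3.99, close to the floor) were slightly higher in CD8+ DCs. The other Sec22a probe set was below the floor and pointed the other way (2.55 and 2.88). With its probe sets averaged, Sec22a differed by 0.01.

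The paralogues Vti1a and Vti1b, which give the Qb motif at different endosomal stations, differed in opposite directions. Vti1a, the partner of syntaxin 6, syntaxin 16 and VAMP4, was at 6.48 in CD8+ and 6.82 in CD8- DCs, and its 4 probe sets above the floor ran from -0.64 to -0.23. Vti1b, the partner of syntaxin 7 and syntaxin 8 in late endosomes, was at 9.48 and 9.09 by a single probe set, a difference of 0.39. Neither reached 1.5-fold. The Golgi Qb-SNARE genes Gosr1 (6.89 and 6.67) and Gosr2 (8.93 and 8.97) differed by 0.21 and -0.03.

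By their brightest probe sets, all 4 Qc genes were nominally higher in CD8+ DCs, as were 52.6% of all genes. Bet1l, a Golgi SNARE, was at 7.13 and 6.78, with 4 probe sets from 0.06 to 0.34. Its relative Bet1, of vesicles leaving the endoplasmic reticulum, was at 6.10 and 6.06. Stx8 was at 7.86 and 7.62, but its other probe set above the floor was level (6.18 and 6.19). Stx6 was at 7.17 and 7.03, its 5 probe sets above the floor lying between 0.07 and 0.29. None reached 1.5-fold, and the median of the class was 0.19, beside 0.03 over all genes. With 4 genes, that median does not set the class apart.

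Of the 6 genes of syntaxin-binding proteins, Stxbp5 and Stxbp6 were past 1.5-fold, in opposite directions, and the other 4 were not. Stxbp5 encodes tomosyn, which occupies syntaxins with its own R-type motif and restrains fusion. It was at 5.02 in CD8+ DCs, against 3.88, just above the floor, in CD8- DCs, or 2.20-fold apart. A probe set almost as bright read 4.61 and 4.24, a difference of 0.37, so the size for this gene depended on the probe set. With all 3 of its probe sets averaged the difference was 0.50.

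Stxbp6, which encodes amisyn, another protein with an R-type motif that binds syntaxins, was at 2.61 in CD8+ and 4.47 in CD8- DCs. The CD8+ value lay below the floor, so the fold in favour of CD8- DCs is given as at least 1.54-fold. The measured log2 difference of -1.85 rests on that near-background value. Its other probe set did not reach the floor (2.09 and 2.80). This was the only member above the floor on 1 array alone.

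The Sec1/Munc18 genes Stxbp2 and Stxbp3 were close to level, as were the other syntaxin-binding genes Stxbp4 and Stxbp5l. Stxbp2, or Munc18-2, which works with syntaxin 11 in granule release, was at 7.46 and 7.66, and its 3 probe sets gave -0.32 to -0.19. Stxbp3, or Munc18c, the partner of syntaxin 4, was at 7.75 and 7.82. Stxbp4, also a binder of syntaxin 4, was at 4.18 and 4.03, and Stxbp5l, a tomosyn relative, at 4.06 and 4.12, both near the floor.

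Grouped by the membrane route they serve, the genes of a route did not move as a block. The routes are textbook assignments, and some genes serve several. Snap47, Stxbp5 and Stxbp6, which were past 2-fold as measured, were assigned to no route and are left out here. The 7 genes between endoplasmic reticulum and Golgi had a median difference of 0.04 and none passed 1.5-fold. Of the 5 genes of Golgi and early endosome, Vamp4 and Vti1a were lower in CD8+ DCs while their usual partners Stx6 and Stx16 differed by 0.14 and 0.04. The 5 late endosomal genes ran from -0.23 (Stx7) to 0.39 (Vti1b), with a median of 0.08. The 10 plasma membrane genes spread most widely, from -0.38 (Stx11) to 1.15 (Stx3), and 2 of them, Stx3 and Vamp3, passed 1.5-fold. Of the 4 autophagosome genes, Stx17 passed it and the partners Snap29, Vamp8 and Ykt6 did not.

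**Figure D4:**
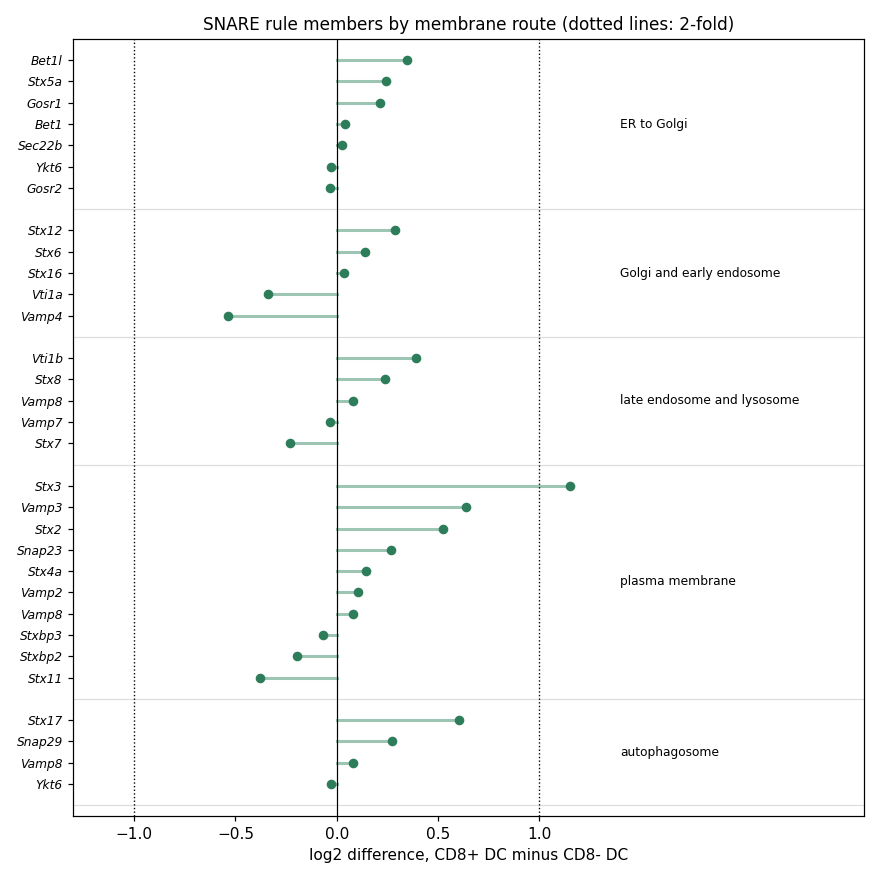
Log2 difference (x axis, CD8+ minus CD8-, brightest probe set) of the SNARE and Munc18 genes assigned to each of 5 membrane routes; Vamp8 and Ykt6 stand in more than 1 route, and dotted lines mark 2-fold. Of the genes assigned to a route, only Stx3 lies past 2-fold, and Vamp4, Vti1a, Stx7 and Stx11 reach furthest to the CD8- side. Snap47, Stxbp5 and Stxbp6 were assigned to no route and are not drawn.

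Other genes of the fusion machinery, from lists of 86 genes, were similar in the subsets. Of these, 82 were on the array and 55 above the floor, with a median difference of 0.06. At 2-fold, 1 was higher in CD8+ DCs (1.82%, against the 3.55% of all genes given above) and 0 in CD8- DCs (against 5.97%). At 1.5-fold, 4 were higher in CD8+ DCs (7.27%, against 8.49%) and 1 in CD8- DCs (1.82%, against 11.5%). Esyt3 encodes an extended synaptotagmin that tethers membranes and does not itself drive SNARE fusion. By its only probe set above the floor, Esyt3 was 4.56-fold higher in CD8+ DCs (6.57 against 4.38). Its relatives Esyt2 (7.41 and 6.80, 1.53-fold) and Esyt1 (7.58 and 7.50) differed less. Another Esyt2 probe set above the floor differed by 0.23.

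The genes that recycle SNAREs were close to level. Nsf, the ATPase that takes SNARE bundles apart, was at 7.30 and 7.49, and its adaptors Napa and Napg were at 7.86 and 7.93 and at 7.37 and 7.58. By their brightest probe sets all 3 were lower in CD8+ DCs, by at most 0.22, but another Napg probe set was 0.30 higher there. The SNARE genes Use1 (9.77 and 9.85) and Bnip1 (6.22 and 5.82), partners of syntaxin 18 outside the name rule, were also under 1.5-fold.

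Among the other Sec1/Munc18 genes, Scfd1, the partner of syntaxin 5, was at 7.72 and 7.56, Vps45, the partner of syntaxin 16, at 6.49 and 6.40, and Vps33b at 6.09 and 6.03. Vps33a, chosen after its values were seen, was the 1 gene of these lists past 1.5-fold in favour of CD8- DCs (4.81 against 5.61, 1.74-fold). It encodes the Sec1/Munc18 subunit of the HOPS complex, which tethers membranes to lysosomes. The other Vps33a probe set above the floor differed by -0.34, which is under 1.5-fold. The priming factor gene Unc13d, also chosen after its values were seen, encodes Munc13-4, which acts with syntaxin 11 and Munc18-2, and was at 5.99 on both arrays. The priming list further held Snapin (6.81 and 6.93), Txlna (6.07 and 6.27) and Txlng (5.94 and 6.39). Another Txlng probe set was 0.56 higher in CD8+ DCs. Among 27 tethering genes above the floor, the median difference was 0.00. They included the Golgi tether gene Uso1 (8.81 and 8.22), the HOPS gene Vps41 (8.67 and 8.34) and the exocyst gene Exoc6 (7.53 and 7.92). Uso1 was just past 1.5-fold towards CD8+ DCs. So was Cog2 (7.17 and 6.49, 1.61-fold), chosen after its values were seen.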

How the data were processed

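Each array measured 45101 probe sets. The deposited table holds log2 signal values, and RMA is the tool the authors used, per the submitters' processing notes (version, genome build and the set of arrays it ran on: not given in the sources used here). RMA gives arrays nearly equal distributions, which hides a shift shared by most transcripts, and background compresses differences of dim genes. Names came from the platform annotation; 34958 had a single symbol, and 34754 of these, with all 105 of the SNARE genes, matched the RefSeq gene table by identifier. Genes counted as above the floor where the higher value reached the median of all values. Where the dimmer value lay below it, the fold uses the floor and reads "at least". Without replicates no test was made, and genes are described at 2-fold and 1.5-fold. The number of arrays limits the precision.

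Every member could be named, and those past 1.5-fold were given with their probe sets; of the other fusion lists, genes past 2-fold and the 3 brightest of each list were named. Members, lists and routes were chosen with earlier results of these data known. Alternatives were centring, a lowess trend (span 0.3), no floor or the 75th percentile, averaged probe sets, no _x_at or _s_at probe sets, values below the floor set to it, and thresholds of 1.5-fold and 4-fold. Python 3.11.15, numpy 2.4.6, pandas 2.3.3 and statsmodels 0.14.6 were used, and the calculation was tested on simulated data.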

Additional observations from a re-analysis of the deposited data

How the results depend on the processing

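The count of genes at least 2-fold higher in CD8+ DCs was 3 in the main setting and 2 or 3 under the other scalings, floors and probe set choices; it was 5 at 1.5-fold and 0 at 4-fold. Stxbp5 was not among them with the floor at the 75th percentile or with probe sets averaged. The count of 1 in favour of CD8- DCs rests on Stxbp6. It was 0 with the floor at the 75th percentile, 0 with probe sets averaged, 0 with dim values raised to the floor and 0 at 4-fold. With probe sets averaged, Stxbp6 still differed by -1.28 but fell below the floor and was not counted. With dim values raised to the floor, its difference of -1.85 became -0.62. The median over the SNARE genes ran from 0.09 to 0.14 over these settings, and that over the other fusion genes from 0.00 to 0.11. Of the 39 genes above the floor, 25 stayed higher in CD8+ DCs and 10 lower under the 4 alternatives that could change a sign (both scalings and both probe set choices), and Sec22b, Stx1a, Stxbp5l and Vamp7 changed sign. No paired analysis was possible because each group had 1 array. Near the floor, the signal limits what can be said of Stxbp4, Stxbp5, Stxbp5l, Stxbp6, Sec22c, Stx1a and Vamp1.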
